A study of Mus musculus with 23 samples.

Results

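The glucocorticoid receptor gene Nr3c1 and 9 genes known to be induced through that receptor were followed in mouse gastrocnemius, the large calf muscle. The members were chosen by name: Nr3c1, Klf15, Klf9, Cebpb, Cebpd, Fkbp5, Tsc22d3, Sgk1, Zbtb16 and Glul. They are 10 of the 23707 features tested, all 10 were found on the arrays, and each was called well above background on 23 of 23 arrays, so no filter on dim probes removed or favoured any of them. Each level below is a log2 signal relative to the 75th percentile of its own array, so that 0 stands for that percentile and a difference of 1 for a doubling. Levels of different genes come from different probes and are not set against each other.

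All mice were male C57BL/6J, housed singly on standard chow. Adult mice began at 5 months and old mice at 24 months, and the labels give 6 and 25 months for the samples. Within each age, sedentary controls were brought to a treadmill that was switched off. HIIT (high-intensity intermittent training) consisted of 3 bouts at 27 m/min, each lasting 2 min, separated by slow walking (5 m/min) for 1 min. MICT (moderate-intensity continuous training) was a single bout at 13 m/min lasting 45 min, and both were done daily over 4 weeks. Dissection followed a rest of 12 h, and the sources used here do not give the hour of dissection for each mouse. There were 4 arrays each of adult control, adult HIIT, old control, old HIIT and old MICT, and 3 of adult MICT (replicates 1, 3 and 4; replicate 2 is not analysed here). The labels number the replicates of a group but do not say how the numbers were given.

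Glucocorticoids are steroid hormones of the adrenal cortex, corticosterone in mice. They bind a receptor that waits in the cytoplasm in a complex with heat shock proteins, moves to the nucleus and binds DNA at a short palindromic element or acts through other factors. In skeletal muscle the hormone is known for turning metabolism toward protein breakdown, amino acid use and fat oxidation, in part through transcription factors that the receptor itself induces, such as Klf15. Hormone levels follow the time of day and rise with stress, exertion and fasting, and genes such as Fkbp5 and Tsc22d3 are widely used as readouts of receptor activity. Hormone was not among the measurements used here.

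The region upstream of a start site is where a factor such as the receptor may bind, so the windows of the members were searched for the receptor's own element and for those of factors downstream of it. RefSeq's promoter table for the GRCm38.p6 build gave windows for 7 of the 10 members, with 14 windows of 250 bases ending at a start site. Nr3c1, Cebpd and Zbtb16 had none among the windows kept. Windows on 1 chromosome were left out for the members but kept in the count over all windows. The lack of a window here thus does not show that the table holds none for Nr3c1, Cebpd or Zbtb16. The receptor palindrome GNACANNNTGTNC lay in 1 of the 14 windows and in 0.387% of the 32851 windows of the same length in the table. The shorter half-site AGAACA lay in 4 of the 14 and in 16.1% of all windows. These 4 were windows 1, 4 and 5 of Sgk1 and window 2 of Tsc22d3. Sgk1 has windows 1 to 6, and windows of the same gene are not separate members. The C/EBP element TTGCNNAA lay in 1 of 14, also of Sgk1, and in 9.56% of all. The FOXO element GTAAACA lay in 1 of 14 and in 3.17% of all. Both strands were searched, and a palindrome can overlap a half-site. The windows of Klf15, Cebpb, Fkbp5 and Glul held none of these 4 motifs, which says only that these letters are not in these windows. The sequences below run 5′ to 3′ on the strand of the gene, with motif matches in capitals. They are shown because Sgk1 alone held the palindrome, because Tsc22d3 held a half-site, because Klf9 held the FOXO element, and because Fkbp5, a standard readout gene, held none. The Sgk1 window, the fifth of its start sites, is chr10:21993640-21993889 on the plus strand, and its palindrome begins at position -188 from the start. The Tsc22d3 window, the second of its start sites, is chrX:140600523-140600772 on the minus strand, with the half-site at position -185. The Klf9 window is chr19:23140976-23141225 on the plus strand, with the FOXO element at position -100. The Fkbp5 window is chr17:28486150-28486399 on the minus strand.
Sgk1: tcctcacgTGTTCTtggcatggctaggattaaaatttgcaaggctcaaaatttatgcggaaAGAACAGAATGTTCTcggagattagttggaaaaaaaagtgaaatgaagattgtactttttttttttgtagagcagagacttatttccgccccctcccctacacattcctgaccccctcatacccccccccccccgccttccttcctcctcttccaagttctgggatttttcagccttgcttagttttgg
Tsc22d3: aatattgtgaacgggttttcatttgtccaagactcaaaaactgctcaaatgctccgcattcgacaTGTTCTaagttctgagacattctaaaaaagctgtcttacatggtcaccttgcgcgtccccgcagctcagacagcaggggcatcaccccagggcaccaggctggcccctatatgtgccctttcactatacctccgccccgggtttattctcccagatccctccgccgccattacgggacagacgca
Klf9: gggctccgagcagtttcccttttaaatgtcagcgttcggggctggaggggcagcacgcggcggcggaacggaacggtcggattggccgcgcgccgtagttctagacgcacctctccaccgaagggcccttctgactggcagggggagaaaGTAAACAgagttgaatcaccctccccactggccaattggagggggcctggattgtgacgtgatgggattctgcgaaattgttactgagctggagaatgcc
Fkbp5: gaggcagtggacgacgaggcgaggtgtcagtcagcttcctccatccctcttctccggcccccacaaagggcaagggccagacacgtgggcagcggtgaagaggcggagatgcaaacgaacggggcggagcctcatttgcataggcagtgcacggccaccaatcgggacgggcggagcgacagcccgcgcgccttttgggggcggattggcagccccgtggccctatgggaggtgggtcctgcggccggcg

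The share of gene spots well above background lay between 47.2% and 58.9%, and 0 spots were saturated. The 8 fast-fibre genes listed to check the tissue (Myh4 and Actn3 among them) were above background on every array. Adult control and adult HIIT shared slide 1, adult MICT and old control slide 2, and old HIIT and old MICT slide 3, so only adult HIIT against its control and old HIIT against old MICT are comparisons within a slide. In the others slide and group cannot be told apart. On slide 3, replicates 1 and 2 of old MICT and of old HIIT were above every other array in 5 of the 10 members, and results are therefore also given without these 4 arrays. On these arrays 49.5% and 52.4% of spots (old MICT) and 52.0% and 58.9% (old HIIT) were detected, the last being the highest of all arrays.

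In old mice trained by MICT, the receptor gene and all 9 targets were higher than in old sedentary mice. The differences ran from 0.52 for Nr3c1 to 2.99 for Cebpd in log2 units, with a median of 1.63, against a median of 0.19 over all features. All 10 passed the test (limma adjusted p from 0.00461 to 0.0364 over all features). In the same comparison 30.4% of all features were called, 21.3% as higher and the rest as lower. In 9 of the 10 genes the 4 old MICT arrays lay wholly above the 4 old controls, as they did in 16.3% of all features. In whole muscle, more of a transcript per cell and more cells that carry it cannot be told apart.

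Nr3c1 encodes the receptor. The old MICT mice had levels of 5.61, 5.86, 5.21 and 5.53 (replicates 1 to 4), and the old controls 5.16, 5.01, 5.13 and 4.84. The groups did not overlap, but old MICT 3 was only just above the highest control. The difference was 0.52 ± 0.13 (SE, n = 4 and 4; 1.43-fold; limma adjusted p = 0.0108). A second, dimmer probe of Nr3c1 differed by 0.44 ± 0.23 (adjusted p = 0.142). Quantile normalization, which brings the median of all features from 0.19 to 0.06, gave 0.22 for Nr3c1 (adjusted p = 0.152) and ended its call.

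Fkbp5 encodes a co-chaperone that binds the receptor complex and lowers its affinity for hormone, and is itself induced by the receptor. Old MICT mice 1 to 4 had levels of 6.78, 6.74, 4.32 and 4.06, and old controls 1 to 4 had 3.46, 3.08, 3.54 and 3.30. All 4 trained mice were above every control, and replicates 1 and 2 stood more than 2 log2 units above replicates 3 and 4. The difference was 2.13 ± 0.56 (4.38-fold, adjusted p = 0.0107).

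The transcription factors of the set were higher in old MICT than in old control mice, and in each the first 2 replicates of old MICT were the highest. Klf15, a regulator of amino acid and lipid use in muscle, was 4.22, 4.01, 2.42 and 2.14 in old MICT 1 to 4, against 1.18 to 1.68 in the old controls. Its difference was 1.78 ± 0.37 (3.43-fold), with the smallest adjusted p of the 10 genes (0.00461). Klf9, a related factor that responds to glucocorticoid in many tissues, was 6.24, 6.01, 4.74 and 4.61, against 4.00 to 4.39, a difference of 1.22 ± 0.29 (2.34-fold, adjusted p = 0.00771). Both Krüppel-like factors were above every old control in all 4 mice.

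Cebpb and Cebpd encode C/EBP β and δ, stress-responsive factors of metabolism and inflammation. Cebpb was 6.92, 6.26, 4.86 and 4.73 in old MICT 1 to 4 and 3.93 to 4.23 in the old controls, a difference of 1.65 ± 0.38 (3.13-fold, adjusted p = 0.00633). For Cebpd the old MICT levels were 9.30, 9.00, 4.93 and 5.90, and the old control levels 4.57, 4.33, 4.22 and 4.05. Its mean difference of 2.99 ± 0.75 (7.95-fold, adjusted p = 0.00925) was the largest of the set, and its spread within old MICT (SD 2.20) was also the largest.

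Zbtb16 encodes PLZF, a zinc-finger repressor that is a strong glucocorticoid target in many cell types. It was 6.12, 6.18, 4.20 and 3.89 in old MICT 1 to 4 and 3.35 to 3.74 in the old controls, a difference of 1.62 ± 0.44 (3.07-fold, adjusted p = 0.0126). Tsc22d3 encodes GILZ, which carries out part of the anti-inflammatory action of glucocorticoids. It was 7.84, 7.98, 6.08 and 6.38, against 5.95, 5.58, 6.02 and 6.03, a difference of 1.18 ± 0.33 (2.26-fold, adjusted p = 0.0151). Old MICT 3 was within 0.1 log2 units of the highest control for Tsc22d3, whereas it was clear of the controls for Zbtb16.

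Glul encodes glutamine synthetase, which makes the glutamine that muscle exports. Levels were 7.69, 7.19, 5.16 and 4.96 in old MICT, against 4.74, 4.06, 4.50 and 4.25 in old controls, a difference of 1.87 ± 0.53 (3.65-fold, adjusted p = 0.0151). Sgk1 encodes a kinase of the insulin and salt-transport pathways. Levels were 6.67, 7.28, 5.36 and 5.31 in old MICT, against 5.36, 4.89, 5.30 and 5.36 in old controls. Sgk1 was the one member whose groups overlapped, since old MICT 3 and 4 lay level with the controls. Its difference of 0.93 ± 0.32 (1.91-fold, adjusted p = 0.0364) became 0.63 with quantile normalization (adjusted p = 0.114), which ended its call.

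**Figure D1:**
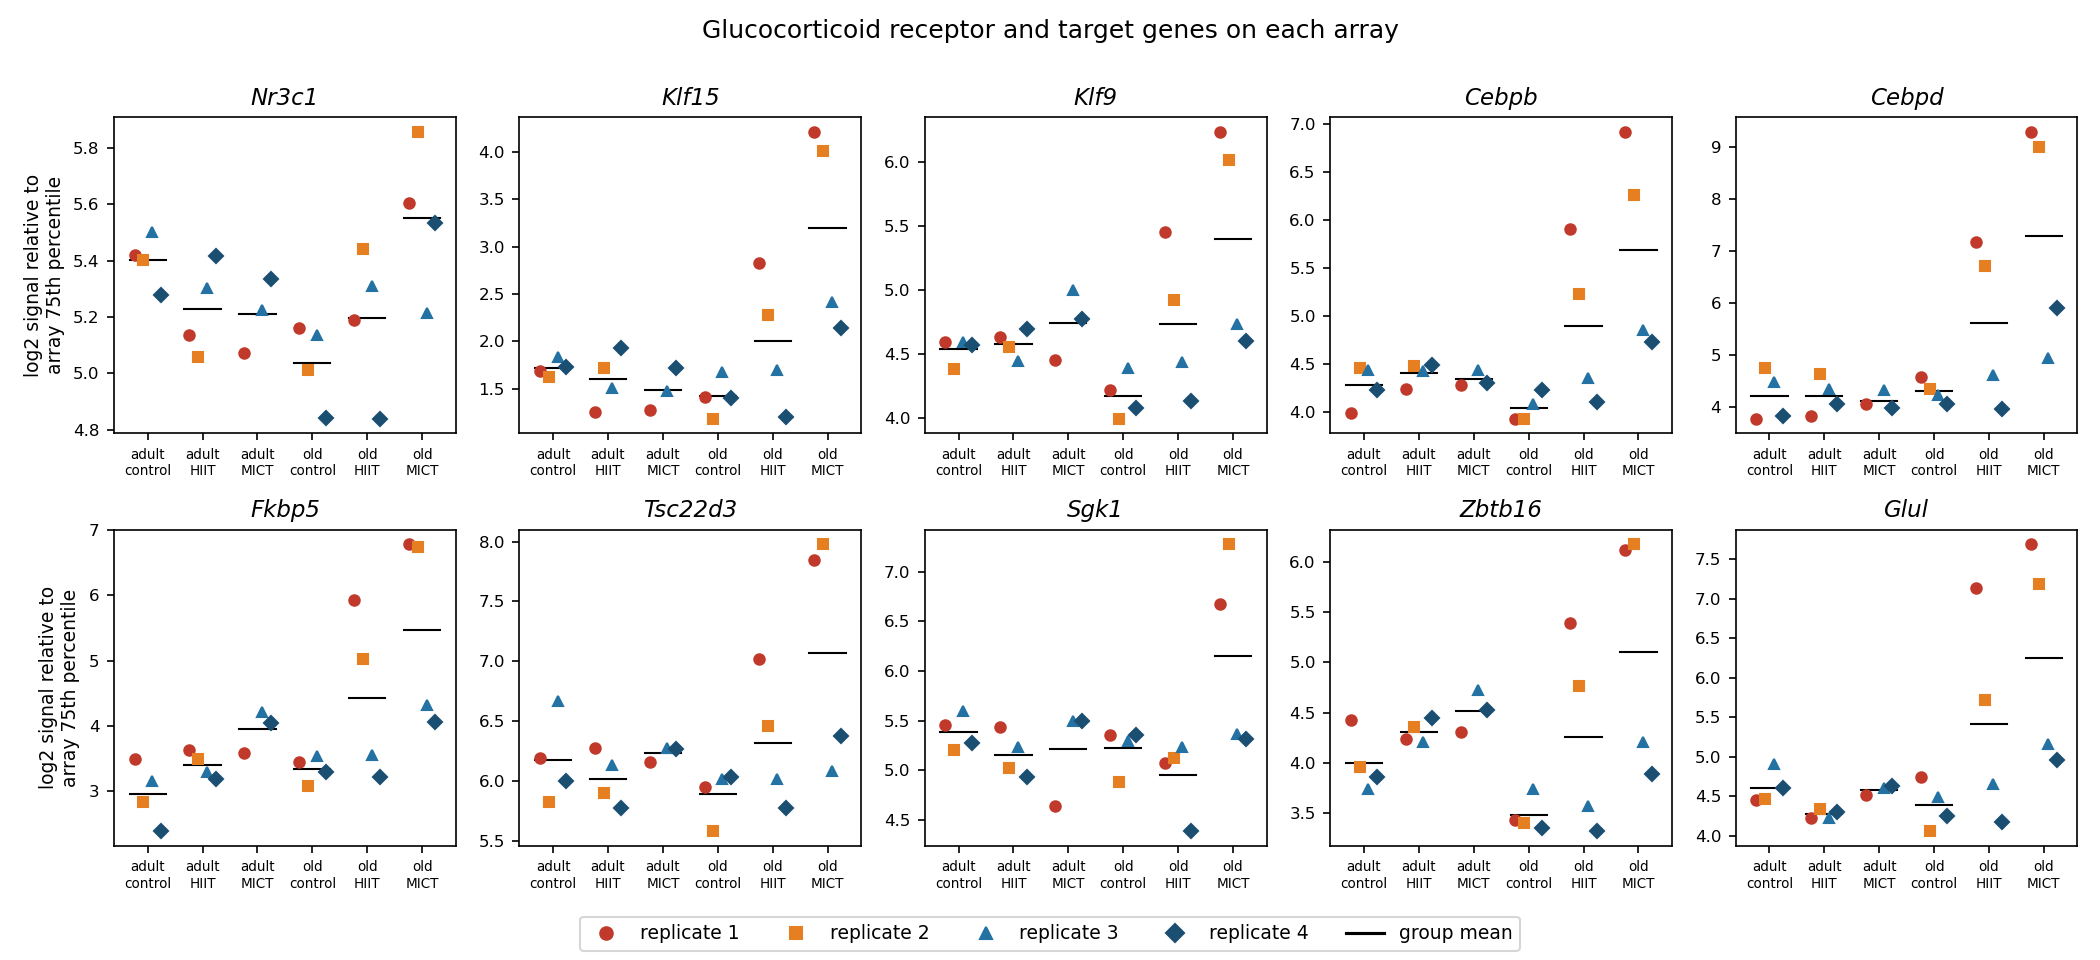
Level of each of the 10 genes on every array. The x axis gives the 6 groups and the y axis the log2 signal relative to the array's 75th percentile; symbols mark the replicate number and black lines the group means. Old MICT 1 and 2 are the highest 2 of the 23 arrays in every gene, and old HIIT 1 and 2 stand above the old controls in each gene but Sgk1.

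The count of 10 depended on which arrays were kept. Without old MICT 1, or without old MICT 2, 6 of the 10 were called, where 4125 and 4213 of all 23707 features were. In both cases Glul, Sgk1, Tsc22d3 and Zbtb16 were the 4 that no longer passed. Without old MICT 1 and 2 and old HIIT 1 and 2, all 10 differences were still positive, from 0.11 for Sgk1 to 1.12 for Cebpd, and 2 were called: Cebpb (0.75, adjusted p = 0.0362) and Klf15 (0.86, adjusted p = 0.0452). In that fit 241 of all 23707 features were called. Without old controls 1 and 2, the arrays with the highest B and T cell transcripts, the differences ran from 0.56 to 3.15 and 0 were called (adjusted p from 0.0662 to 0.221). With only the old MICT and old control arrays in the fit the differences were the same, from 0.52 to 2.99, and 0 were called (adjusted p from 0.0545 to 0.14), as were 0 of all 23707 features.

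In old mice trained by HIIT, 9 of the 10 genes had a positive difference from old controls, and 0 were called, where 0.494% of all features were. The median was 0.68, against 0.08 over all features, and the adjusted p ran from 0.28 to 0.703. At an unadjusted limma p under 0.05 the smallest was 0.0347, for Cebpb. The same controls serve both old training groups, so the pair of comparisons is not independent.

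The HIIT arrays fell apart by replicate in most members. Fkbp5 was 5.93, 5.03, 3.55 and 3.21 in old HIIT 1 to 4, a mean difference of 1.09 ± 0.56 from old controls (adjusted p = 0.345). Cebpd was 7.17, 6.72, 4.61 and 3.96 (1.32 ± 0.75, adjusted p = 0.39). Glul was 7.14, 5.72, 4.65 and 4.17 (1.03 ± 0.53, adjusted p = 0.342). In each of these genes old HIIT 1 and 2 were far above the controls and old HIIT 4 was within or below their range.

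Cebpb was 5.90, 5.23, 4.35 and 4.11 in old HIIT 1 to 4, and Zbtb16 was 5.39, 4.76, 3.57 and 3.32. Klf15 was 2.83, 2.28, 1.70 and 1.20, Klf9 was 5.45, 4.92, 4.44 and 4.14, and Tsc22d3 was 7.02, 6.46, 6.02 and 5.78. In all 5 of these genes replicates 1 and 2 were the 2 highest of the group. Nr3c1 was 5.19, 5.44, 5.31 and 4.84, where replicate 3 exceeded replicate 1. Sgk1 was 5.07, 5.12, 5.23 and 4.38, and its mean was below the controls by 0.27 ± 0.32 (adjusted p = 0.703). Old HIIT 1 and 2, in which the other targets were high, were within the control range for Sgk1.

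Both old training groups were on slide 3, so their comparison is within a slide. All 10 genes were lower in old HIIT than in old MICT, with differences from -1.67 for Cebpd to -0.36 for Nr3c1 and a median of -0.84. None of the 10 passed (adjusted p from 0.22 to 0.427), and limma called 0% of all features in this comparison, with 3982 of 23707 at an unadjusted p under 0.05. Sgk1, at 4.38 to 5.23 in old HIIT and 5.31 to 7.28 in old MICT, was the one gene whose 2 groups did not overlap (-1.20 ± 0.32, adjusted p = 0.22; 4.25% of features lay wholly lower).

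In 5 of the 10 genes (Cebpb, Cebpd, Fkbp5, Zbtb16 and Glul) the 4 arrays old MICT 1 and 2 and old HIIT 1 and 2 exceeded each of the other 19 arrays. The same held for 289 features, 1.22% of those tested, and these 4 arrays were singled out after the values were seen. For Fkbp5 the lowest of the 4 was 5.03 and the highest of the other 19 was 4.32. For Glul these values were 5.72 and 5.16, and for Cebpd 6.72 and 5.90. For Zbtb16 the margin was narrow, at 4.76 and 4.72. Over the 9 targets together, the median deviation from the adult control mean reached 2.50 and 2.18 in old MICT 1 and 2, and reached 1.40 and 0.77 in old HIIT 1 and 2. Replicates 3 and 4 had 0.56 and 0.36 with MICT and -0.02 and -0.40 with HIIT, and the deviation lay between -0.54 and 0.19 on the 15 control and adult training arrays. On slide 3 the replicate number is also the column of the array, so these 4 arrays share 2 columns of that slide. Among the old controls of slide 2, the mean of replicates 1 and 2 minus that of 3 and 4 was negative in 7 of the 10 genes, down to -0.26 for Tsc22d3. It was positive for Cebpd (0.31), Nr3c1 (0.10) and Glul (0.03). The part that position on the slide, order of dissection or hour of the day had in these values was not tested.

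**Figure D2:**
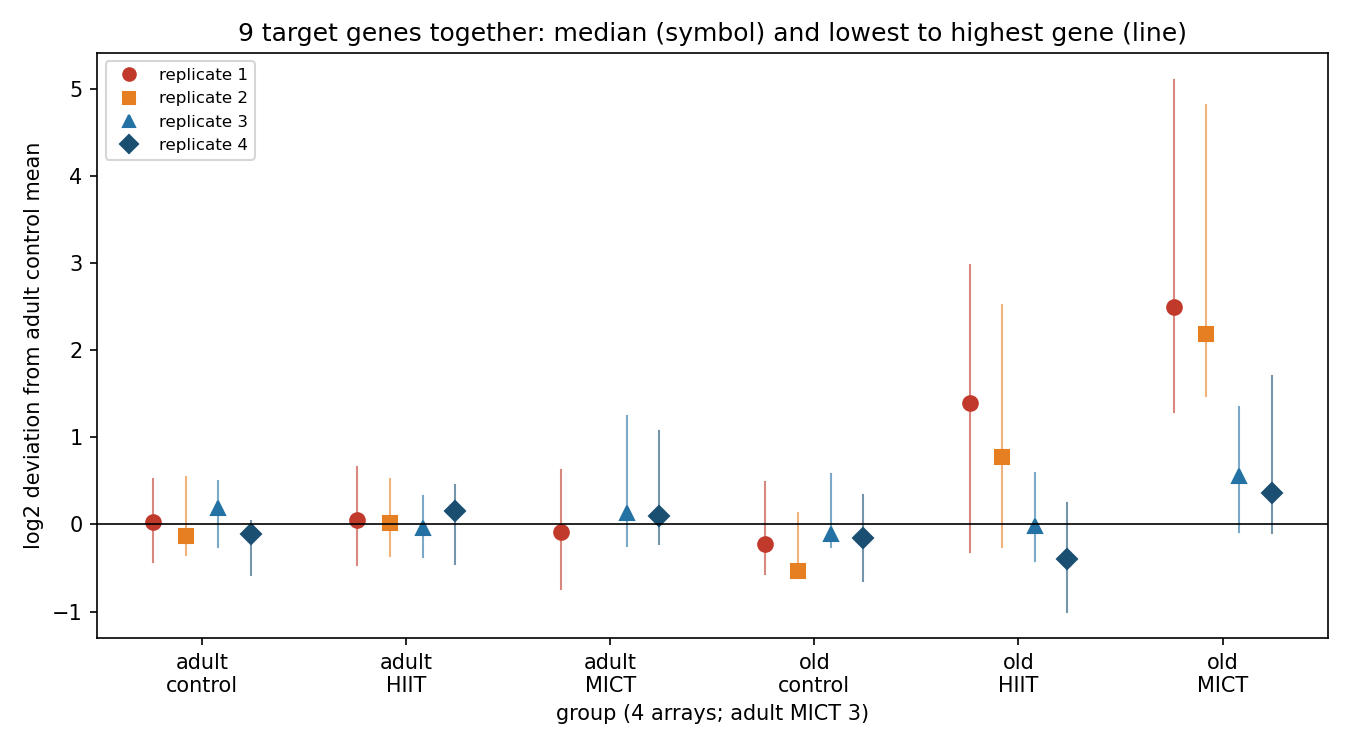
Summary of the 9 target genes on each array. The y axis is the log2 deviation from the adult control mean, symbols mark the median over the 9 genes and lines run from the lowest to the highest gene. Old MICT 1 and 2 have medians of 2.50 and 2.18 and old HIIT 1 and 2 of 1.40 and 0.77, while the 15 control and adult training arrays lie between -0.54 and 0.19.

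In adult mice no member passed the test with either regimen. Against adult controls, 5 of 10 differences were positive and 5 negative with HIIT (median -0.05, from -0.33 to 0.43), and 5 and 5 with MICT (median 0.02, from -0.23 to 0.98). Of the 10, 0 passed in adult HIIT (adjusted p from 0.928 to 0.999) and 0 in adult MICT (adjusted p = 1 for each). Limma called 0% of all features in both comparisons, with 1206 features at an unadjusted p under 0.05 in adult HIIT and 487 in adult MICT.

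Fkbp5 had the largest adult difference. It was 3.59, 4.22 and 4.04 in adult MICT 1, 3 and 4 and 3.49, 2.83, 3.16 and 2.39 in adult controls 1 to 4. The 3 trained mice were above all 4 controls, as was so in 1.80% of features, and the difference was 0.98 ± 0.60 (n = 3 and 4, 1.97-fold, adjusted p = 1). Glul was 4.23, 4.34, 4.23 and 4.30 in adult HIIT and 4.46, 4.46, 4.91 and 4.61 in adult controls. Its adult HIIT arrays lay wholly below the controls, as in 2.97% of features, with a difference of -0.33 ± 0.53 (adjusted p = 0.968). That SE comes from a spread shared by all 6 groups. For Glul the SD was 0.055 in adult HIIT and 0.21 in adult controls, against 1.31 in old HIIT and 1.39 in old MICT. The other genes overlapped between the adult groups.

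Across adult controls, adult HIIT and adult MICT in that order, Klf15 ranged over 1.62 to 1.84, 1.26 to 1.93 and 1.28 to 1.71, and Klf9 over 4.39 to 4.60, 4.45 to 4.69 and 4.45 to 5.00. Cebpb ranged over 3.99 to 4.46, 4.25 to 4.49 and 4.28 to 4.45, and Cebpd over 3.77 to 4.74, 3.83 to 4.62 and 3.97 to 4.32. Adult Cebpd and Cebpb thus held a band of about 1 log2 unit or less, where the old MICT arrays spread over more. Tsc22d3 ranged over 5.83 to 6.67, 5.78 to 6.27 and 6.16 to 6.28, and Sgk1 over 5.21 to 5.60, 4.93 to 5.44 and 4.64 to 5.50. Zbtb16 ranged over 3.74 to 4.42, 4.20 to 4.45 and 4.31 to 4.72, and Nr3c1 over 5.28 to 5.50, 5.06 to 5.42 and 5.07 to 5.33. Old MICT had the highest mean of the 6 groups in all 10 genes, and old control the lowest in Nr3c1, Klf15, Klf9, Cebpb, Tsc22d3 and Zbtb16.

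HIIT and MICT were also compared in adult mice, where 0 of the 10 genes and 0% of features were called (adjusted p of the genes from 0.868 to 0.989; 1837 features at an unadjusted p under 0.05). Glul lay wholly lower in adult HIIT (4.23 to 4.34) than in adult MICT (4.51 to 4.63), as did 6.06% of features.

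**Figure D3:**
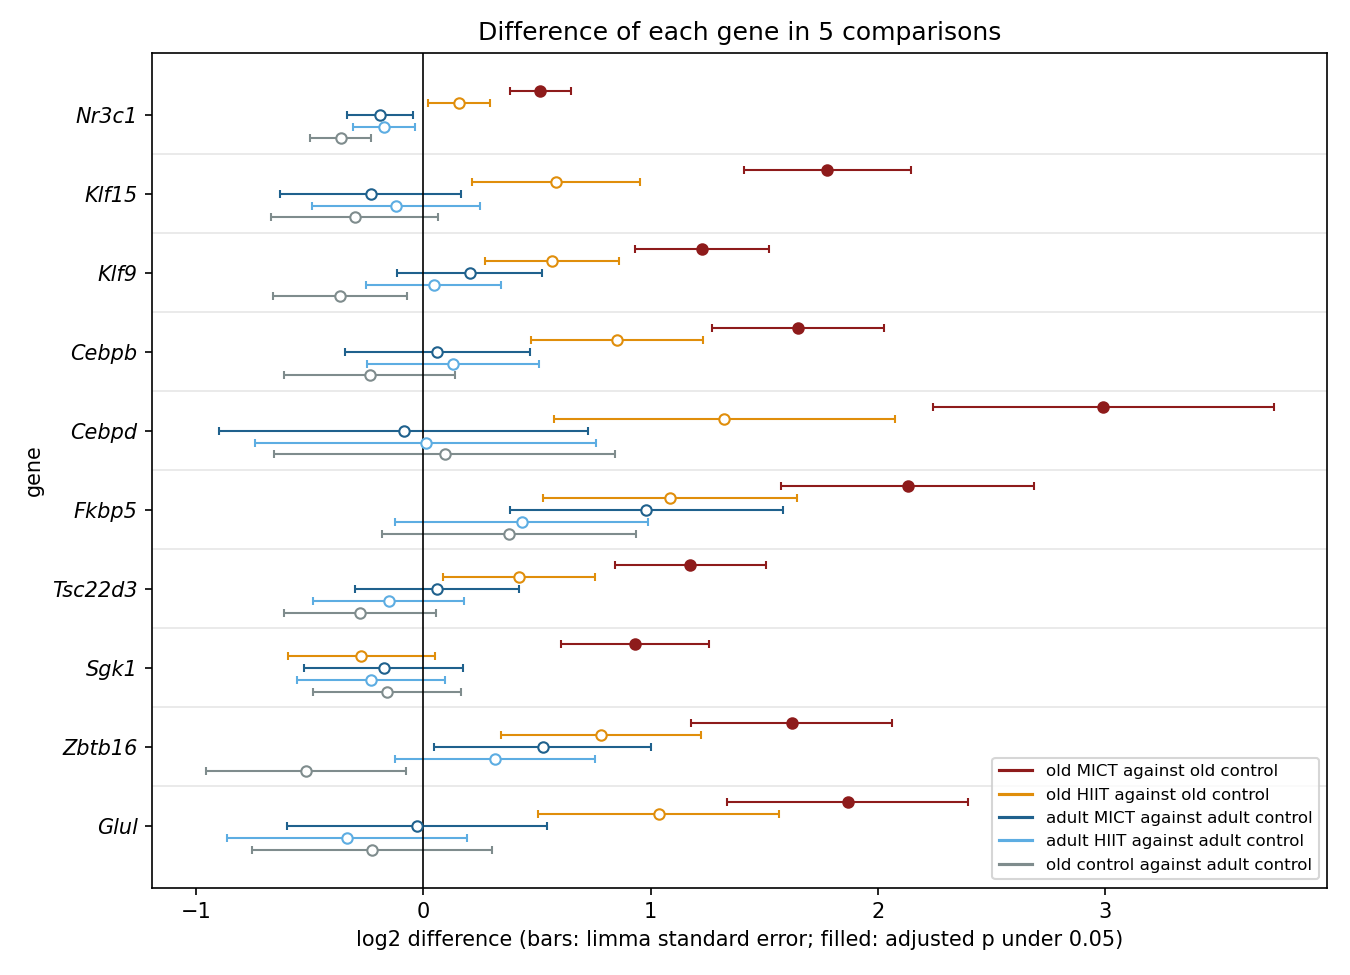
Log2 difference of each gene in 5 comparisons, with limma's standard error as bars and filled circles at an adjusted p under 0.05. The old MICT differences are filled for all 10 genes, from 0.52 (Nr3c1) to 2.99 (Cebpd), and every circle of the 4 other comparisons is open.

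Whether the training response differed with age was tested as a difference of differences. For MICT the response was larger in old than in adult mice in all 10 genes, with a median of 1.13, but 0 passed (adjusted p from 0.0748 for Klf15 to 0.362 for Fkbp5), where 0.692% of features were called. Klf15 differed by 2.01 ± 0.54 and Nr3c1 by 0.71 ± 0.20 (adjusted p = 0.083). With array weights, or without old control 3, Klf15 and Nr3c1 passed, and without old MICT 3, Cebpd passed as well. For HIIT, 9 of the 10 were positive (median 0.61), 0 passed (adjusted p from 0.472 to 0.973), and limma called 0% of features, with 2699 at an unadjusted p under 0.05. The test of the difference therefore did not show a response particular to old muscle.

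Age itself was compared in the sedentary mice, where 12.9% of features were called and 0 of the 10 genes were. Differences of old from adult controls were negative in 8 of 10, with a median of -0.26 against -0.14 over all features. For Nr3c1 the adult controls had 5.42, 5.40, 5.50 and 5.28, and the old controls the 5.16, 5.01, 5.13 and 4.84 given above. All old values were below all adult values, as in 10.7% of features, and the difference was -0.36 ± 0.13 (adjusted p = 0.073); the second probe differed by -0.25 ± 0.23. The receptor gene in old MICT mice (mean 5.55) was nearer to the adult controls (mean 5.40) than to the old controls (mean 5.04). The largest negative difference was that of Zbtb16, at -0.52 ± 0.44 (adjusted p = 0.428), and Fkbp5 was positive at 0.38 ± 0.56 (adjusted p = 0.665).

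The target genes moved together across arrays. The correlation of each target with the mean of the other targets, standardised over the 23 arrays, was 0.936 to 0.963 for Klf15, Klf9, Cebpb, Cebpd, Fkbp5, Tsc22d3 and Glul, 0.895 for Zbtb16, 0.762 for Sgk1 and 0.683 for the receptor. These are descriptions over 23 arrays that share the 4 high ones. Outside the set, the 10 named genes most like the mean of the targets were Lrrc58 (r = 0.979), Bach1 (0.977), Mtmr1 (0.974), Rc3h1 (0.971), Tollip (0.969), Tmem140 (0.969), Slc43a1 (0.967), Ddx27 (0.967), Foxo1 (0.966) and Mapk1ip1 (0.964). Across all features, 308 (1.30%) had r of at least 0.9. Lrrc58, the closest, was 6.23, 6.11, 3.72 and 3.68 in old MICT 1 to 4, 4.76, 4.32, 3.46 and 2.94 in old HIIT 1 to 4, and 3.20 to 3.45 in the old controls. Foxo1, which encodes a transcription factor of fasting and muscle breakdown, was 6.08, 6.08, 2.93 and 3.24 in old MICT 1 to 4, 4.04, 3.79, 2.62 and 2.66 in old HIIT 1 to 4, and 2.38 to 2.73 in the old controls. Both genes show the split between replicates 1 and 2 and replicates 3 and 4. They were picked by likeness over the same 23 arrays, so the split follows from that choice and adds no support. Foxo1 is also on the list of other glucocorticoid-induced genes below.

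Of 31 other genes known to be induced by glucocorticoids, 30 were tested. In old MICT 19 of the 30 were called higher and 0 lower, with a median of 1.44. Over all features 21.3% were called higher, with a median of 0.19. Those with the smallest p were Pdk4, a kinase that slows glucose oxidation (3.76 ± 0.76, adjusted p = 0.0041), Per1, a clock gene with a receptor element (1.74 ± 0.36, adjusted p = 0.0048), Fbxo32, the muscle ubiquitin ligase atrogin-1 (2.96 ± 0.62, adjusted p = 0.0049), and Depp1, a FOXO target (3.93 ± 0.89, adjusted p = 0.006). Pdk4 was 9.38, 9.08, 6.66 and 6.16 in old MICT 1 to 4 and 3.11 to 4.84 in the old controls. Depp1 was 7.21, 5.97, 1.54 and 3.46 in old MICT 1 to 4 and 0.34 to 0.96 in the old controls. All 4 mice were above every control in both genes. Without the 4 high arrays 6 of the 30 were called, without old controls 1 and 2, 0 were, and without old MICT 1, or without old MICT 2, 13 were. All features called in these fits numbered 241, 403, 4125 and 4213 in that order.

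Some genes of that list had no called difference in old MICT. Dusp1, a phosphatase that glucocorticoids induce in many cells, differed by -0.03 ± 0.25 (adjusted p = 0.94) in old MICT, and Rasd1 by -0.94 ± 0.77. Bcl6, a transcriptional repressor, had 3.56 and 3.82 on old MICT 1 and 2, but 5.72 and 5.56 on old MICT 3 and 4 and 5.04 to 5.75 in the old controls. Bcl6 was thus lowest where the targets were highest, with a group difference of -0.65 ± 0.38 (adjusted p = 0.189). It was 1 of 3 negative differences among the 30. Angptl4, a secreted inhibitor of lipoprotein lipase, had a small group difference of 0.21 ± 0.89, but its replicates were split as in the targets, at 4.28, 4.89, 0.97 and 0.71 in old MICT 1 to 4. On the 4 high arrays Angptl4 ran from 3.51 to 4.89, above the highest of the other 19 (3.31). The metallothioneins Mt1 and Mt2 differed by 1.21 ± 0.70 and 1.17 ± 0.83 and did not pass. Mt1 was 8.47, 9.53, 6.29 and 5.28 in old MICT 1 to 4, against 5.91 to 6.51 in the old controls, so that only replicates 1 and 2 were above them. These 6 genes were picked after their values were seen. In old HIIT 0 of the 30 were called (median 0.47). With age, where 12.9% of all features were called, 1 was called, Rasd1, higher by 2.54 ± 0.77 (adjusted p = 0.0382).

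**Figure D4:**
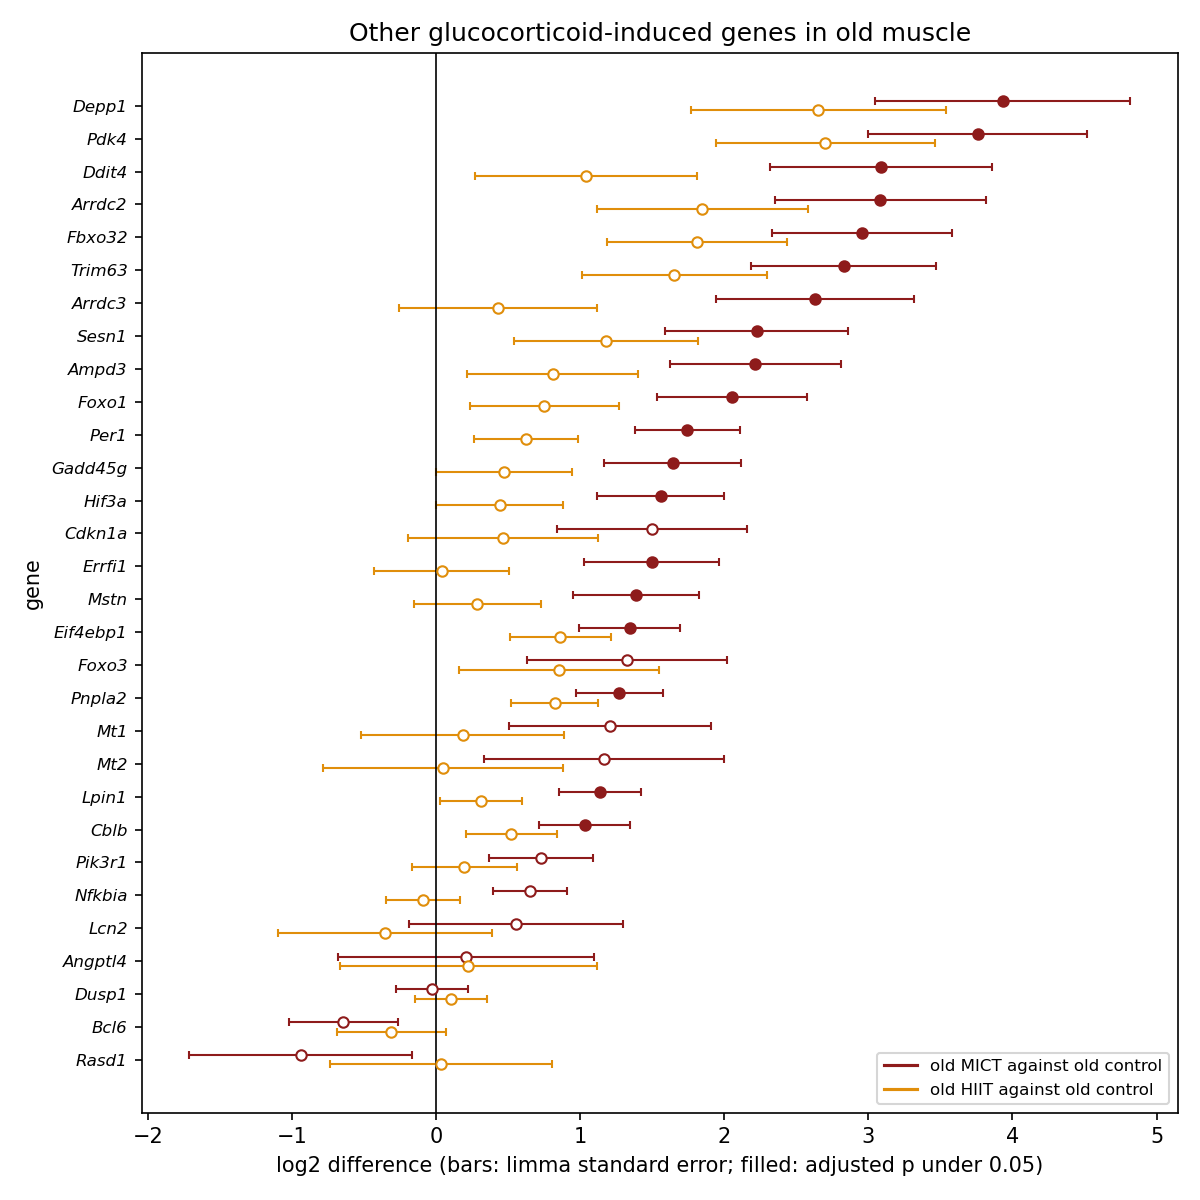
Log2 difference of the 30 other glucocorticoid-induced genes in old MICT and in old HIIT, each against the same old controls, with limma's standard error as bars and filled circles at an adjusted p under 0.05. In old MICT 19 of 30 circles are filled, led by Depp1 at 3.93 and Pdk4 at 3.76, and in old HIIT none is.

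Genes that hold the receptor or handle the hormone were called about as often as features at large. Of 17 tested, 5 were called higher and 1 lower in old MICT, where 30.4% of all features were called and 21.3% were higher. Their median was 0.20, close to that of all features, and the genes named next are single results. Hsp90ab1 and Ptges3, a chaperone and co-chaperone of the receptor complex, were higher by 0.50 ± 0.13 (adjusted p = 0.009) and 0.42 ± 0.12 (adjusted p = 0.0154). H6pd, which supplies the cofactor for hormone reactivation in the endoplasmic reticulum, was higher by 1.87 ± 0.47 (adjusted p = 0.0097). It was 6.37, 6.11, 3.22 and 3.74 in old MICT 1 to 4 and 2.85 to 3.19 in the old controls. Srd5a1, a steroid reductase that inactivates glucocorticoids and makes dihydrotestosterone, was lower by 2.55 ± 0.59 (adjusted p = 0.0065). It was -3.29, -3.88, -2.71 and -2.81 in old MICT 1 to 4 and -1.37 to 1.16 in the old controls. Hsd11b1, the enzyme that reactivates the hormone, differed by 0.51 ± 0.25 (adjusted p = 0.12) and Nr3c2, the mineralocorticoid receptor, by -0.09 ± 0.43 (adjusted p = 0.88); both were named after their values were seen. The called genes of this group thus include 1 that was lower, and quantile normalization gave 1 higher and 2 lower calls. Without old control 2 there were 2 higher calls, without old control 1, old MICT 1 or old MICT 2 there were 3, and without the 4 high arrays 0. In old against adult controls the co-chaperone Stip1 was lower (-0.46 ± 0.14, adjusted p = 0.0356), as was Hsp90ab1 (-0.41 ± 0.13, adjusted p = 0.0381).

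Glucocorticoids are known to raise the use of branched-chain amino acids in muscle, and Klf15 is a regulator of that pathway. Of 14 genes of amino acid breakdown, 11 were called higher in old MICT and 0 lower, with a median of 0.71. Over all features 21.3% were called higher, with a median of 0.19. Aldh6a1 and Hibadh, enzymes of valine breakdown, were higher by 0.72 ± 0.13 and 0.68 ± 0.14. Bckdha, a subunit of the branched-chain ketoacid dehydrogenase, was higher by 0.96 ± 0.21, and Ivd, of leucine breakdown, by 0.84 ± 0.20. Bckdha was 6.47, 5.68, 5.76 and 5.75 in old MICT 1 to 4 and 4.67 to 5.37 in the old controls. Unlike the targets, Bckdha stood at a similar level in old MICT 2, 3 and 4. With quantile normalization, or without old control 2, 6 of the 14 were called, without old MICT 1 7 were, and without the 4 high arrays 1 was. All features called in these fits numbered 5424, 3690, 4125 and 241 in that order. In old against adult controls, where 1970 of the 23707 features were called lower, 4 were lower. These were Bckdk, Bckdha, Hibadh and Aldh6a1, by 0.44 to 0.91 log2 units. In old HIIT 0 were called (median 0.41).

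Clock genes are listed because hormone and clock both follow the hour. Of 12 tested, 4 were called higher in old MICT, where 21.3% of all features were, so the count says little of clock genes as a group. The 4 were Per1 (above), Arntl, which encodes the clock activator BMAL1 (1.65 ± 0.40, adjusted p = 0.008), Cry2 (1.33 ± 0.34, adjusted p = 0.0097) and Tef (0.65 ± 0.18, adjusted p = 0.0124). Arntl was 3.75, 3.87, 1.82 and 1.89 in old MICT 1 to 4, 2.56, 2.72, 1.62 and 1.30 in old HIIT 1 to 4, 1.00 to 1.43 in the old controls and 1.72 to 3.04 on the adult arrays. Dbp, a clock output gene that was picked after its values were seen, read 3.75 (replicate 1) and 4.43 (replicate 2) with old MICT, and 4.59 and 4.83 in the same replicates of old HIIT. On the other 19 arrays Dbp lay between 5.15 and 7.01, so the 4 arrays with high targets were the lowest 4 for this gene, as they were for 80 features (0.337%). The hour of dissection is not given for each mouse, and its part in the target values was not tested. Without the 4 high arrays, or without old controls 1 and 2, 0 clock genes were called in old MICT. In old HIIT 0 were called, as in adult mice.

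Transcripts of other cell types also differed in old MICT against old controls, where 2140 of the 23707 features were called lower and 5059 higher. Of the B and plasma cell markers 4 of 6 were lower, with a mean level of 1.16 to 5.75 in old controls, 1.21 to 4.11 in old HIIT and 0.31 to 1.04 in old MICT relative to adult controls. Of the T and NK cell markers 4 of 7 were lower (0.88 to 3.83, 0.99 to 2.64 and -0.18 to 0.47 in the same order). Of the fibroblast markers 4 of 6 were lower and 1 higher, of macrophage markers 3 of 6 lower, and of neutrophil and mast cell markers 2 of 9 lower. No keratinocyte marker was called, but all 6 had a negative difference with a median of -3.86, and their mean level was 0.74 to 9.01 in old controls, 1.63 to 8.39 in old HIIT and -0.86 to 2.97 in old MICT. Of the adipocyte markers 0 of 8 were called and 0 were positive (median -0.97; 0.23 to 3.46, 0.01 to 2.28 and 0.55 to 2.54 in the same order). Of the slow-fibre markers 0 of 8 were called and 1 was positive (median -0.98), of the endothelial markers 0 of 6 were called (median 0.10), and 3 of 8 fast-fibre markers were higher. Fibroblast markers were lowest of all 23 arrays on old MICT 1 and 2, at -1.99 and -1.29, followed by old MICT 3 at -0.96. On old HIIT 1 and 2 they were -0.69 and -0.55, within the range of the other arrays. For B and plasma cells the 4 high arrays ran from 0.31 to 4.11, within the -0.33 to 5.75 of the other 19. The part of these cells in the target values was not tested. Some markers passed the filter through few arrays, so their levels and calls rest in part on signals near background. Cd79a and Cd8a were above background on 3 of 23 arrays, Ngp and Ltf on 4, Gzmb on 5, Mpo on 7 and Ms4a1 on 8.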

How the data were processed

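Per the file headers, Agilent Feature Extraction 12.0.3.1 made the deposited intensity values (processed signal, background-subtracted and detrended within each array; raw and background medians) and the flags per spot. The deposited series table holds a score per spot, whose making is not given in the sources used here; it followed the log10 signal with r above 0.9995. Control spots and flagged outliers were left out, spots of a probe were averaged as log2 intensity, and each array's 75th percentile was subtracted. Probes well above background on at least 3 arrays were tested, with the brightest probe per symbol (RefSeq table, GRCm38.p6; 28331 of 29786 RefSeq probes matched; array annotation mm9, so that table gives names and promoter windows only).

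limma 3.58.1 (R 4.3.3) fitted 6 group means to all 23 arrays, with a trend of variance on intensity; tests were 2-sided, p-values were adjusted (Benjamini-Hochberg) per comparison over all 23707 features, and calls are at an adjusted p under 0.05. A value after ± is limma's SE, from a spread per gene shared by all 6 groups. The SE and p-value of an adult comparison thus also carry the spread within old MICT and old HIIT. The number of arrays limits the precision. The labels do not tie each array to a separately named mouse, so p-values measure the spread between these samples. The script was tested on simulated data. Members, lists and tests were chosen with earlier results of these data known. All 10 members are named; of other lists, up to 4 genes with the smallest p in a comparison with called genes, and the 10 genes most like the mean target, unless stated; a result that the rule would name is not reported here. Marker levels are mean deviations from the adult control mean. Same-numbered arrays of compared groups did not all correlate above 0.1, so numbers were not treated as pairs. Alternatives were other background corrections, scalings, filters, probe rules, variance models and array sets, the score table, and models with replicate number or slide; leaving out the 4 high arrays was added after seeing the data.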

Additional observations from a re-analysis of the deposited data

Results flagged for a closer look

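Of 50 groups of 4 arrays examined (10 genes in 5 groups), 2 held an array far from the other 3, and chance alone is expected to mark about 1 in 20 groups. Klf9 in adult control 2 was 4.387, with the nearest adult control at 4.573, a gap of 0.887 of the group's range. Sgk1 in old control 2 was 4.886, with the nearest old control at 5.298, a gap of 0.873 of the range. Neither is one of the 4 arrays with high targets, whose values come in pairs within their groups and were not marked by this rule.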

How the results depend on the processing

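Of the count of 10 genes called in old MICT against old controls, 0 were called with only the groups compared in the fit, 0 in an additive model of age, training and slide (differences from 0.19 to 1.68, in a model with 1 MICT effect for both ages), 0 without old controls 1 and 2, and 2 without old MICT 1 and 2 and old HIIT 1 and 2. With each array left out in turn the count ran from 6 to 10. The other alternatives gave 8 to 10, and a replicate block gave 10. No gene changed sign in that comparison under any alternative run. For the difference in MICT response between ages, 2 genes were called with array weights, and with each array left out in turn the count ran from 0 to 3. The replicate block changed no other call of a member. The counts of the 7 other comparisons stayed at 0 wherever they were run. All features called in old MICT numbered 7199 and ranged from 3690 to 8739 with 1 array left out; 4026 were called with normexp background, 403 without old controls 1 and 2, 241 without the 4 high arrays, and 0 with only the groups compared or with slide. Of 5424 features called with quantile normalization 3035 were higher, against 5059 of 7199. Slide as a random block was not run, because each group lies on 1 slide, and the additive model gives no value for the 2 differences in response. With 3 or 4 arrays a group, differences near the SE printed here could not be detected.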
